A study of Saccharomyces cerevisiae with 279 samples.

Results

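The mitochondrial ribosomal protein genes of budding yeast (Saccharomyces cerevisiae) were followed through all treatments of a study of messenger RNA (mRNA) sedimentation and translation. Members were the nuclear genes whose symbol in the deposited annotation is MRPL, MRPS or MRP followed only by digits. This naming rule gave 56 of 5906 nuclear protein-coding genes, of which 34 are MRPL, 9 are MRPS and 13 are MRP with a number. From the annotation, 38 encode proteins of the large and 17 of the small mitochondrial ribosomal subunit. The remaining gene, MRP8, carries the symbol but is annotated as a protein of unknown function, and it is reported here beside the others because its values stood apart in several treatments. A further 25 mitoribosomal protein genes with other symbols were kept as a separate list.

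The mitochondrial ribosome translates the few proteins encoded by mitochondrial DNA, most of them core subunits of the respiratory chain and of the ATP synthase. Nearly all of its proteins are encoded in the nucleus, translated on cytosolic ribosomes and imported into the organelle, while its ribosomal RNAs and VAR1 come from mitochondrial DNA. In yeast, mRNAs for mitoribosomal proteins are well-known targets of the RNA-binding protein Puf3, which influences their decay, their translation and their localization near mitochondria. VAR1, being a mitochondrial gene, is not among the nuclear members.

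Sed-seq spins a lysate into a supernatant and a pellet and sequences the mRNA of both and of the unfractionated lysate (Total). Polysome-seq sequences Total and pooled fractions of a sucrose gradient, which were the free, mono- and disome and heavier polysome fractions in heat, and the free and all ribosome-bound fractions in azide and ethanol. Sed-seq gave 231 libraries from 77 lysates in 12 experiments, and Polysome-seq gave 48 libraries from 14 lysates in 3 experiments. Wild-type BY4741 cells in synthetic complete medium with dextrose (SCD) stayed at 30°C or were shocked for 10 min. Cells were shocked at 42°C or 46°C in the heat experiment and Polysome-seq, and at 46°C only in a Sed-seq experiment with spike-in RNA. They were also treated at pH 6.8 with 0.5% or 0.8% sodium azide, a respiration inhibitor, for 30 min against a water mock. In further experiments they were exposed for 15 min to ethanol, at 5% and 10% in one experiment and at 7.5% and at 15% in others, against a resuspension in plain SCD, or to 10 mM DTT, a reducing agent, for as long. The translation inhibitor cycloheximide (CHX, 100 µg/mL) was given for 10 min before 30°C, 42°C or 46°C. In the degron strains yJB042 and yHG038, grown in YPD, the initiation factors eIF3b or eIF4E were depleted by inducing the TIR1 ligase with β-estradiol and adding auxin for 2 h, with DMSO as mock, before 30°C, 42°C or 46°C. Both degron strains carry the tag and the inducible ligase in mock and depleted cultures alike. Each group held 2 lysates labelled as separate replicates (BR1 and BR2), except that the 42°C groups of the CHX experiment and 7 Clover reporter strains had 1 and are given as values only. These strains carry a fluorescent Clover reporter at leu2 with an mCherry control, and the leader of the reporter has the weakest (yHG005), a weak (yHG006), a medium (yHG007) or the strongest hairpin (yHG008), no hairpin (yHG010), the GCN4 leader (yHG026) or a GCN4 leader with its upstream reading frames disrupted (yHG027). The study's methods describe replicates as biological and separate from growth onwards, and p-values measure the spread between them. An exact permutation test of 2 against 2 lysates cannot go below p = 0.33, so calls rest on models fitted across all transcripts. Depth ranged from 2426960 to 36895321 estimated counts per Total library (median 11696177).

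In the 30°C lysates of the heat experiment the members were moderately expressed, at a median of 43.8 and 41.4 TPM in the 2 lysates, against 23.6 and 23.3 for all transcripts tested. TPM, the deposited transcript share scaled to a fixed library sum, is corrected for transcript length. The order of the levels in that experiment was not the order elsewhere. MRPL39, which encodes the large subunit protein bL33m, was the highest there, at 315 and 286 TPM, but its control means in the other 13 experiments with 2 control lysates lay between 43.8 and 146 TPM, where it ranked between 3 and 14. In those experiments either MRPS12 (uS12m) or MRPL44 (mL53) was the highest. MRPS12 lay between 120.0 and 217 TPM there, and at 30.6 and 7.46 TPM in the heat experiment, where it had the largest ratio between its 2 lysates. MRPL44 was at a mean of 75.3 TPM in the heat experiment and between 92.8 and 229 in the others. At the lower end of the other 13 experiments stood MRPL51 (mL43), between 4.10 and 14.8 TPM, and MRPL38 (uL14m), between 3.55 and 17.6, against means of 35.7 and 44.5 TPM in the heat experiment. MRPL4 (uL29m), the lowest in the heat experiment at 15.0 and 14.8 TPM, lay between 28.2 and 49.2 in the others. The heat experiment was sequenced as single-end reads with another library kit and the others as read pairs, and the part of this in the levels was not tested. Its levels are therefore set only against lysates of the same experiment in what follows. Member transcripts are short, between 424 and 1374 bases with a median of 815, against 1517 for all transcripts with a deposited length. They lie on 12 of 16 nuclear chromosomes, and no 2 members are adjacent genes. MRPL19 shares bases with an uncharacterized gene on its own strand, so its values are less certain. MRPL38, MRPL51 and MRPL9 share 366, 323 and 303 bases with genes on the opposite strand, and MRP4 shares 2. Whether these overlaps bear on their values was not tested.

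**Figure D1:**
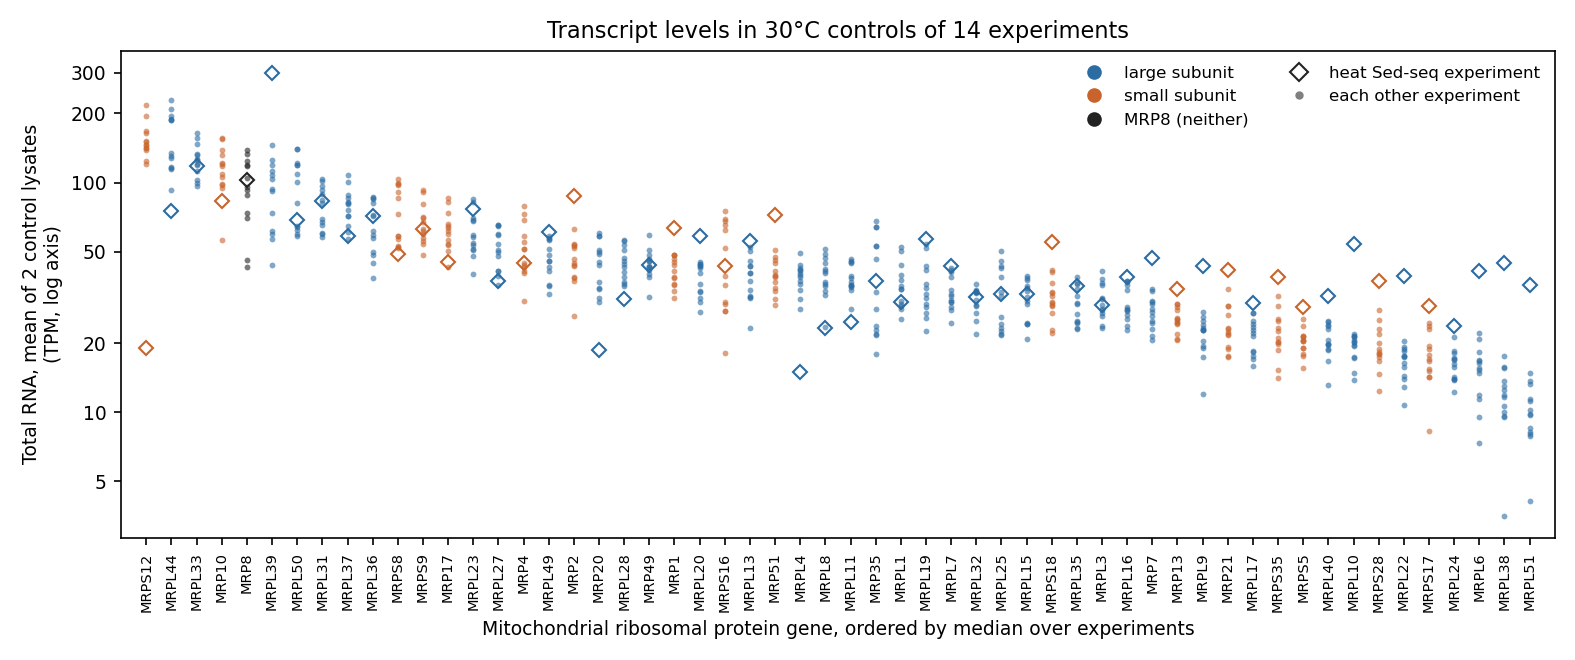
Total RNA of the 56 genes in 30°C control lysates, in TPM on a log axis, with 1 point per experiment (mean of its 2 control lysates), an open diamond for the heat Sed-seq experiment and dots for the other 13. The diamond of MRPL39 lies above its dots (43.8 to 146 TPM) and that of MRPS12 below its own (120.0 to 217 TPM).

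Sedimentation was expressed as pSup, the fraction of a transcript's molecules in the supernatant. Member transcripts were mostly soluble at 30°C, with a median pSup of 0.923 in both lysates of the heat experiment, against 0.886 and 0.884 for all transcripts tested. Since long transcripts sediment more, each log-odds of pSup was compared with that of transcripts of similar length in the same lysate and divided by the spread (SD) of such transcripts in control lysates. The resulting control score, rSed, is positive where a transcript sediments more than others of its length. MRP8 had the lowest rSed of all members in the controls of 8 of 11 experiments with 2 control lysates and was among the 3 lowest in the others, with values between -1.78 and -1.02 SD units. MRPS12 had the highest in the heat experiment, at 1.33, but between -0.60 and 0.37 in the other 10. MRPL37 (mL54) was above the mean of its length in all 11, between 0.24 and 1.39. Ribosome occupancy (Occ) is the share of a transcript in the ribosome-bound fractions, out of free and bound, after scaling to the spike-in. In the 30°C lysates of heat Polysome-seq, the members had a median Occ of 0.856 and 0.878, against 0.838 and 0.852 for all transcripts tested. MRP8 had the highest mean there, at 0.933 and 0.938.

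A treatment's escape score, eSed, is the change in the length-corrected score, with the sign set so that a positive value means more of the transcript in the supernatant than for transcripts of similar length. Changes in Total abundance are log2 fold changes scaled by TMM, which centres them near the median transcript, and changes in Occ are differences in natural log-odds after centring each lysate on its median mRNA. All calls below use an adjusted p under 0.05 (Benjamini-Hochberg over all nuclear protein-coding transcripts tested), from edgeR for abundance and from limma for eSed and Occ. "Rose" and "fell" are used of calls only. In these bulk lysates, fewer cells of a kind and less RNA per cell cannot be told apart. Across the comparisons the members stood furthest from the other transcripts in 3 settings, namely 0.8% azide, 7.5% and 10% ethanol, and depletion of the initiation factors, as the plot of medians by comparison shows.

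**Figure D2:**
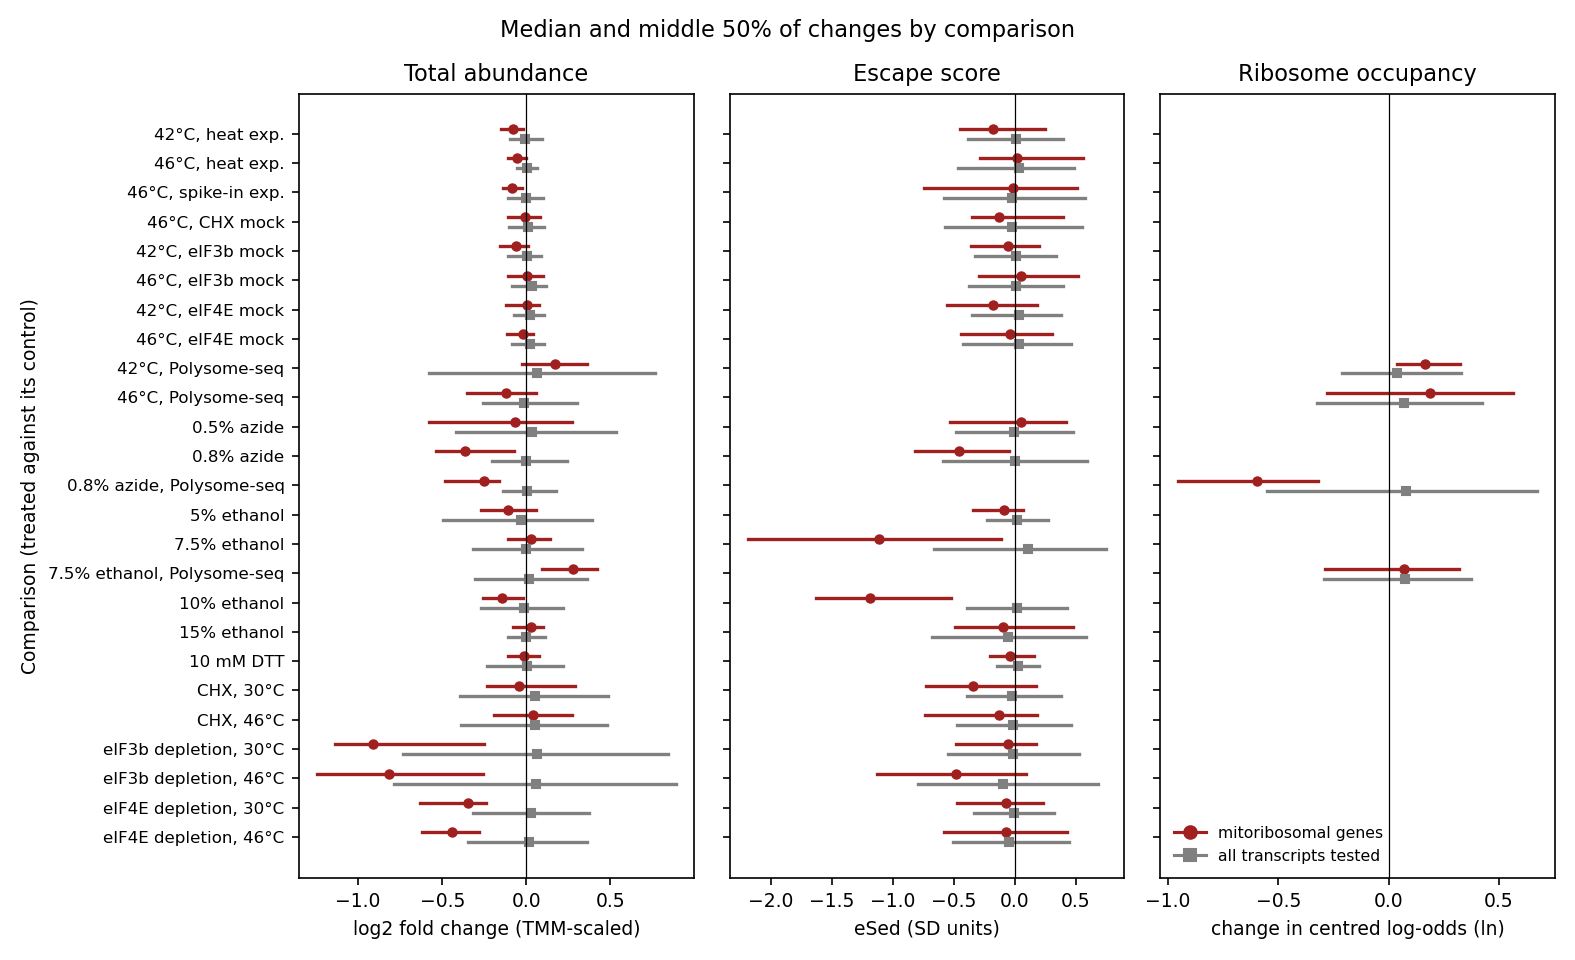
Median (point) and middle 50% (line) of the changes of the mitoribosomal genes, in red, and of all transcripts tested, in grey, for Total abundance (log2), eSed (SD units) and Occ (natural log-odds), by comparison. The red medians leave the grey ones most in 0.8% azide (Occ -0.60), in 7.5% and 10% ethanol (eSed -1.11 and -1.19) and in eIF3b depletion (abundance -0.91 and -0.81).

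In 0.8% azide, members fell in abundance in each of 2 separate experiments, and most also fell in ribosome occupancy. In Sed-seq, 29 of 56 members fell and 1 rose, where 19.1% of all transcripts fell and 21.3% rose, and the members' median change was -0.36 on the log2 scale. In the Total libraries of Polysome-seq, 32 fell and 1 rose, where 20.8% of all transcripts fell and 23.2% rose, with a median of -0.25. The members took 0.321% and 0.310% of the library's TPM in the mock lysates of Sed-seq and 0.218% and 0.232% in azide. Small subunit genes fell in 11 of 17 cases and large subunit genes in 18 of 38. Without mock replicate 2, 18 fell in Sed-seq and none rose.

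MRPL19 (uL11m) was at 34.6 and 37.9 TPM in the mock lysates and at 10.1 and 14.7 in azide in Sed-seq, a log2 change of -1.35 ± 0.18 (SE, adjusted p = 0.00129). All its azide values lay below its mock values. MRPS18, the small subunit protein uS11m, went from 26.7 and 27.1 to 10.3 and 11.2 TPM (-1.15 ± 0.11, adjusted p = 0.000385). For MRPL13 (mL50) the mock lysates held 45.3 and 41.7 TPM and the azide lysates 18.8 and 19.7 (-1.01 ± 0.09, adjusted p = 0.000225). MRPL13 also had the largest fall in the Polysome-seq experiment, from 45.4 and 45.9 to 23.8 and 22.6 TPM (-0.86 ± 0.07, adjusted p = 2.68e-06). It was followed there by MRP2 (uS14m), from 42.2 and 45.2 to 20.4 and 25.3 TPM (-0.84 ± 0.15, adjusted p = 0.000892), and by MRPL50 (bL9m), from 120.0 and 118.1 to 64.4 and 69.3 TPM (-0.72 ± 0.07, adjusted p = 1.1e-05). MRPL25 (mL59) was the one member that rose, and it did so in both experiments. Its level was 40.7 and 37.1 TPM in mock and 45.6 and 49.8 in azide in Sed-seq (0.49 ± 0.11, adjusted p = 0.00904), and 34.7 and 31.9 against 41.8 and 45.3 TPM in Polysome-seq (0.50 ± 0.09, adjusted p = 0.0013). Across the 56 members, the changes in the 2 experiments had a Pearson r of 0.82 and a Spearman rho of 0.84, a description across genes that share lysates within each experiment. The same values over all transcripts were 0.87 and 0.78. The difference between experiments was itself called for MRPL7 only, with 4.47% of all transcripts called.

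Ribosome occupancy fell in 43 of 55 members tested in 0.8% azide and rose in 1, where 35.5% of all transcripts fell and 41% rose. The members' median Occ went from 0.895 and 0.863 in the mock lysates to 0.674 and 0.663 in azide, whereas the median of all transcripts tested went from 0.872 and 0.850 to 0.769 and 0.758. Members thus started above the median mRNA and ended below it, with a median change of -0.60 in centred log-odds. Unlike eSed, Occ was not corrected for transcript length. Members are short (median 815 against 1517 bases), and the part of length in this change was not tested. MRP8 had the largest fall, from an Occ of 0.932 and 0.887 to 0.345 and 0.321 (-2.37 ± 0.12, adjusted p = 2.3e-20), the lowest occupancy of any member in azide. MRPL39 went from 0.932 and 0.885 to 0.571 and 0.589 (-1.35 ± 0.16, adjusted p = 6.42e-10). MRPL28 (mL40) went from 0.908 and 0.889 to 0.585 and 0.539 (-1.28 ± 0.13, adjusted p = 8.3e-12). MRPS16, the small subunit protein bS16m, was the one gene that rose relative to other mRNAs, although its own Occ was 0.899 and 0.863 in mock and 0.863 and 0.837 in azide (0.38 ± 0.14, adjusted p = 0.0103). Condensed mRNA can leave the gradient as a pellet, outside both fractions, so that Occ in stressed cells need not be the share of all molecules of a transcript. Without centring on the median mRNA, 54 of 55 members fell and none rose. With counts of the ribosome-bound library against Total in edgeR, 14 fell and 1 rose.

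The related gene lists moved in different ways in the same lysates. Among the 25 other mitoribosomal protein genes Occ fell in 21 and rose in 1, and among 29 mitochondrial protein import genes it fell in 21 and rose in 1. Of 37 mitochondrial translation factors and aminoacyl-tRNA synthetases, 21 rose and 11 fell. Of 137 cytosolic ribosomal protein genes, 133 fell and 1 rose, with a median of -1.53, further down than the members. Abundance in the Polysome-seq experiment fell in 16 of the 25 other mitoribosomal genes and in 19 of the 37 factors and synthetases, while 77 of the 137 cytosolic ribosomal protein genes rose and 6 fell.

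**Figure D3:**
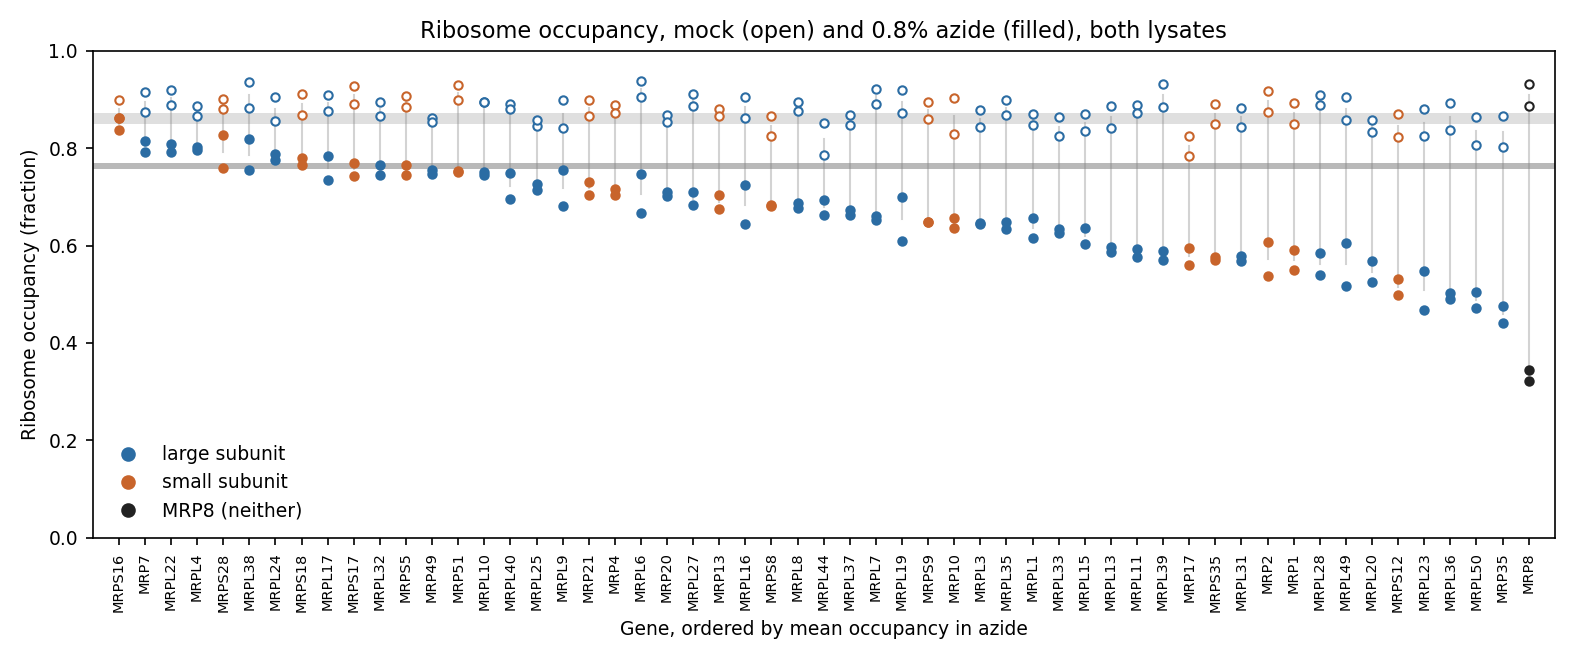
Ribosome occupancy (fraction bound) of the 55 genes tested, in mock (open points) and 0.8% azide (filled points), with 1 point per lysate and a line between the group means. The grey bands span the 2 lysate medians of all transcripts tested, 0.872 and 0.850 in mock and 0.769 and 0.758 in azide, and MRP8 lies lowest in azide at 0.345 and 0.321.

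The members' sedimentation in 0.8% azide was called for few genes. Their median pSup went from 0.869 in both mock lysates to 0.712 and 0.662, against 0.813 and 0.790 to 0.663 and 0.592 for all transcripts tested. The median eSed was -0.46, with 2 members risen and 3 fallen, where 18.6% of all transcripts were called. MRPS35 (mS45; eSed 1.44 ± 0.32, adjusted p = 0.0234) and MRPL3 (mL44; 1.01 ± 0.28, adjusted p = 0.0409) rose. Below 0 were MRPL10 (uL15m; -1.59 ± 0.34, adjusted p = 0.0222), MRPS18 (-1.58 ± 0.36, adjusted p = 0.0257) and MRPL51 (-3.73 ± 1.00, adjusted p = 0.0388), the last with as few as 44 Total counts in a lysate. Without mock replicate 2 none was called, while with the replicate number as a block more members were called.

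The milder 0.5% azide moved members in both directions. Of 56, 22 fell and 12 rose in abundance, where 34.5% of all transcripts fell and 36.8% rose, and scaling to library totals in place of TMM turned this to 27 that rose and 5 that fell. That scaling moved the median of all transcripts by 0.42. MRPS18 again fell, from 29.1 and 30.97 TPM to 8.25 and 6.60 (-2.13 ± 0.16, adjusted p = 8.17e-07), and under library totals its change was still -1.75. MRPL7 (uL5m) was at 28.6 and 28.7 TPM in mock and at 13.5 and 15.9 in azide (-1.08 ± 0.12, adjusted p = 1.45e-05). For MRPL9 (uL3m) the change was -0.70 ± 0.13 (adjusted p = 0.000781). MRPS5 (uS5m) rose from 14.4 and 16.6 to 29.4 and 27.1 TPM (0.74 ± 0.11, adjusted p = 0.000178), MRPS17 (uS17m) by 0.71 ± 0.13 (adjusted p = 0.000745) and MRPL24 (bL28m) by 0.63 ± 0.16 (adjusted p = 0.0042). The members' eSed had a median of 0.05, and 2 of 55 rose and 4 fell, where 35% of all transcripts were called. Those that rose were MRPL15 (mL57; 1.89 ± 0.36, adjusted p = 0.00313) and MRPS35 (1.06 ± 0.33, adjusted p = 0.0328), and those that fell were MRPL49 (bL21m, -1.75), MRP7 (bL27m, -1.05), MRPL8 (bL17m, -0.997) and MRPS12 (-0.76). Leaving out mock replicate 1 left 1 rise and 2 falls, and leaving out mock replicate 2 left 1 rise.

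In ethanol, members shifted towards the pellet more than transcripts of similar length at 7.5% and 10%, where over 50% of them fell in eSed. A fall in eSed is relative to transcripts of similar length and does not mean that most of a transcript was pelleted. At 5% and 15% the members' median eSed lay near 0. The differences between concentrations were not tested. At 5% the members' median pSup was 0.917 and 0.929 against 0.944 and 0.928 in mock, and the median eSed was -0.09. No member was called by limma, with or without a trend, at 5%, with 5 at an unadjusted p under 0.05, where 2.47% of all transcripts were called. At 7.5%, 33 of 56 fell in eSed and 2 rose, where 22.8% of all transcripts fell and 27.9% rose, with a median of -1.11. At 10%, 30 fell and none rose, where 10.3% of all fell and 10.6% rose, with a median of -1.19. At 15%, where the members' median pSup itself dropped from 0.949 and 0.927 to 0.466 and 0.478, 6 fell and 7 rose, where 22.3% of all fell and 23% rose, and the median eSed was -0.10. The 5% and 10% groups share their mock lysates, and the 7.5% and 15% experiments have their own. At 10%, leaving out ethanol replicate 2 left 11 falls. At 15%, the counts were 2 rises and 3 falls without mock replicate 1, and 1 rise and 4 falls without mock replicate 2.

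MRPL7, a large subunit protein of the central protuberance, had the largest fall at 7.5%. Ethanol took its pSup from 0.887 and 0.907 down to 0.661 and 0.650 (eSed -4.00 ± 0.25, adjusted p = 2.12e-08). MRPL8 went from 0.896 and 0.901 to 0.719 and 0.678 (-3.79 ± 0.29, adjusted p = 8.89e-08), and MRP1 (mS43) from 0.868 and 0.898 to 0.669 and 0.631 (-3.62 ± 0.24, adjusted p = 2.7e-08). In each of them both ethanol values lay below both mock values. Yet every ethanol pSup of these genes was 0.631 or above, so most of their molecules stayed in the supernatant. Those that rose at 7.5% were MRPL28, at 0.902 and 0.924 in mock and 0.924 and 0.932 in ethanol (1.18 ± 0.38, adjusted p = 0.0177), and MRPL35 (mL38), at 0.895 and 0.900 against 0.885 and 0.876 (0.67 ± 0.26, adjusted p = 0.0401). MRPL35 thus lost a little pSup, but less than transcripts of its length.

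At 10% the largest falls among genes with at least 100 counts in every Total library were those of MRP17, MRPL7 and MRP1. MRP17 (bS6m) went from 0.947 and 0.929 in mock to 0.740 and 0.738 (eSed -2.51 ± 0.28, adjusted p = 0.00199). MRPL7 was again low, at 0.723 and 0.692 against 0.929 and 0.923 (-2.24 ± 0.28, adjusted p = 0.0025), and so was MRP1, at 0.681 and 0.674 against 0.925 and 0.902 (-2.22 ± 0.22, adjusted p = 0.00182). The members' eSed at 7.5% and at 10%, which come from separate experiments, had a Pearson r of 0.80 and a Spearman rho of 0.82 over 56 genes, against 0.55 and 0.54 over all transcripts. With 15% the Pearson r was 0.30 for 7.5% and 0.26 for 10%, against 0.19 and 0.38 over all transcripts. Of these genes, MRP1 also fell at 15%, with pSup of 0.354 and 0.324 in ethanol (-1.10 ± 0.21, adjusted p = 0.00279), as did MRP4 (uS2m; -1.24 ± 0.22, adjusted p = 0.00166) and MRPL44 (-1.45 ± 0.27, adjusted p = 0.00238). MRPL7 had an eSed of -0.51 at 15%, which was not called. MRPL25 (1.35 ± 0.44, adjusted p = 0.0316), MRPL40 (uL24m; 1.25 ± 0.39, adjusted p = 0.0297) and MRPS18 (1.12 ± 0.32, adjusted p = 0.0182) led the rises at 15%.

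**Figure D4:**
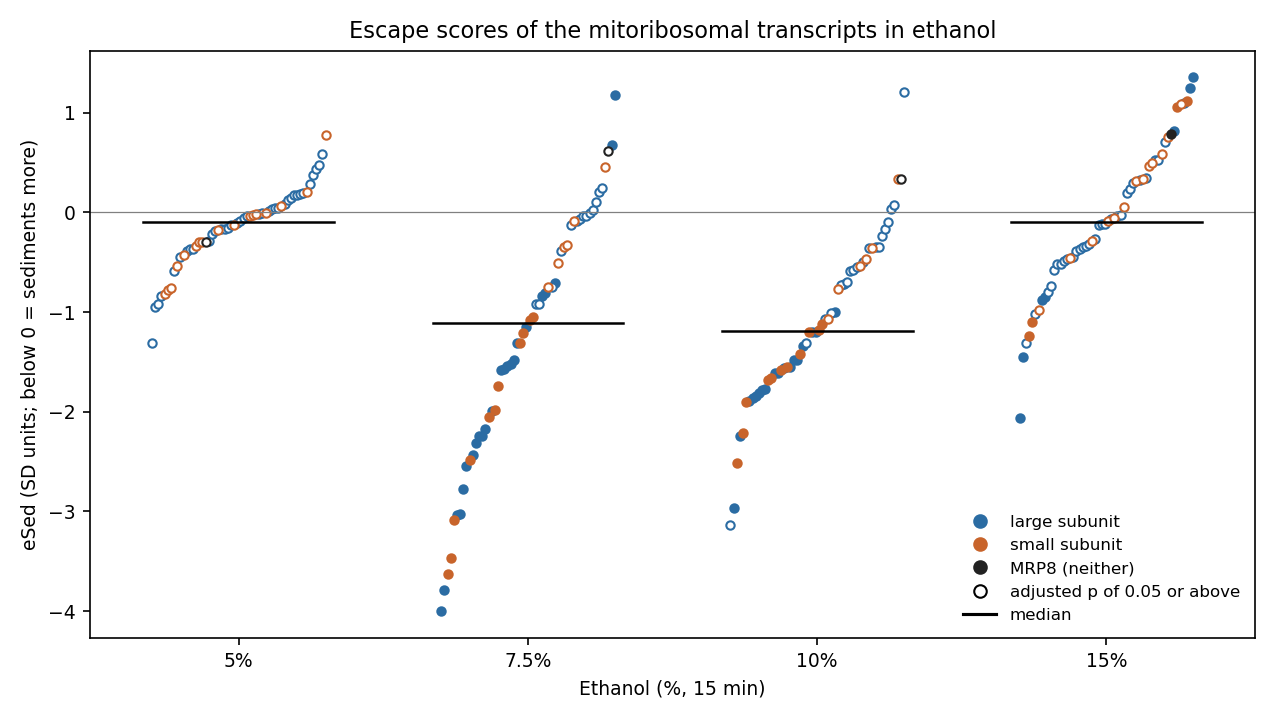
eSed (SD units) of each gene at 5%, 7.5%, 10% and 15% ethanol, ordered by value within a concentration and coloured by subunit, with filled points called and open points not called. The black lines mark medians of -0.09, -1.11, -1.19 and -0.10, so the genes lie low at 7.5% and 10% and around 0 at 5% and 15%.

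Both subunits took part. Large subunit genes fell in 22 of 38 cases at 7.5% and 19 of 38 at 10%, and small subunit genes in 11 of 17 at each, with medians of -1.03 and -1.13 for the large and -1.21 and -1.20 for the small subunit. MRP8 had an eSed of 0.62 at 7.5% and 0.33 at 10%, neither called, and 0.79 at 15%, which was. The other mitoribosomal protein genes fell in 17 of 25 cases at 7.5% and 18 of 25 at 10%, and the mitochondrial translation factors and synthetases in 23 and 14 of 37. Of the 29 protein import genes 10 and 9 fell. Cytosolic ribosomal protein genes went the other way, with 66 and 39 of 137 risen and 1 and 2 fallen. The transcript of PUF3 itself had an eSed of -3.72 at 7.5%, -1.62 at 10% and -1.59 at 15%. Whether this bears on the members' transcripts was not tested.

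The abundance of members in ethanol depended on the concentration, the experiment and the scaling. At 7.5% in Sed-seq, 7 rose and 8 fell, where 29.2% of all transcripts rose and 29.4% fell, with a median of 0.03. In the Polysome-seq experiment at the same concentration 29 rose and 3 fell, where 30.5% rose and 29.4% fell, with a median of 0.28. Library totals in place of TMM gave 2 rises and 25 falls in the first and 15 rises and 4 falls in the second, having moved the median of all transcripts to -0.28 and -0.15. The gene-by-gene changes were nevertheless alike in the 2 experiments, with a Pearson r of 0.91 and a Spearman rho of 0.89 over 56 genes. They were 0.84 and 0.72 over all transcripts. The difference between experiments was called for 3 members (MRP4, MRP8 and MRPS12), with 18.4% of all transcripts called.

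MRPS17, MRP8 and MRPL38 were the 3 largest rises at 7.5% in both experiments. In Polysome-seq MRP8 was at 77.4 and 62.8 TPM in mock and at 133.5 and 116.6 in ethanol (log2 change 1.18 ± 0.12, adjusted p = 5.96e-05), and in Sed-seq at 98.1 and 92.8 against 96.9 and 109.3 (0.57 ± 0.08, adjusted p = 0.000231). Its TPM in Sed-seq overlapped between groups while the TMM-scaled change was called. MRPS17 changed by 0.74 ± 0.13 in Sed-seq (adjusted p = 0.00113) and 0.73 ± 0.10 in Polysome-seq (adjusted p = 0.00027), and MRPL38 by 0.52 ± 0.19 (adjusted p = 0.0415) and 0.85 ± 0.18 (adjusted p = 0.00398). MRP4 fell in both, from 82.4 and 76.1 to 37.1 and 36.5 TPM in Sed-seq (-0.65 ± 0.07, adjusted p = 4.39e-05) and from 68.6 and 69.2 to 40.9 and 44.1 in Polysome-seq (-0.36 ± 0.06, adjusted p = 0.00149). MRPS9 (uS9m) also fell in both, by 0.46 and 0.34 on the log2 scale. Beside these, MRPL37 fell in Sed-seq (-0.47 ± 0.13, adjusted p = 0.0127) and MRP1 in Polysome-seq (-0.27 ± 0.08, adjusted p = 0.0139).

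At 5% ethanol 17 members fell and 6 rose, where 39% of all transcripts fell and 33.8% rose, and at 10% 16 fell and 1 rose, where 26.7% fell and 26.9% rose. Small subunit genes fell in 10 of 17 cases at 5%, and large subunit genes in 7 of 38. The 137 cytosolic ribosomal protein genes fell in 130 cases at 5% and rose in 97 at 10% under TMM. MRP8 rose at 5%, from 126.1 and 112.8 to 171.1 and 178.2 TPM (0.70 ± 0.07, adjusted p = 2.82e-06), and fell at 10%, to 68.7 and 74.2 TPM (-0.56 ± 0.07, adjusted p = 6.68e-05). MRPS18 fell at both, from 40.3 and 41.2 TPM to 23.4 and 24.8 at 5% (-0.60 ± 0.08, adjusted p = 3.75e-05) and to 22.8 and 22.2 at 10% (-0.67 ± 0.08, adjusted p = 3.49e-05). The other large falls were MRPL39 (-0.58 ± 0.19, adjusted p = 0.0163) and MRPL20 (mL58; -0.50 ± 0.09, adjusted p = 0.000416) at 5%, and MRP49 (mL61; -0.53 ± 0.10, adjusted p = 0.000708) at 10%. MRPL24 (0.35) and MRPL25 (0.32) followed MRP8 among the rises at 5%, and the one at 10% was MRP20 (uL23m; 0.22 ± 0.07, adjusted p = 0.02). At 15%, 23.2% of all transcripts were called, and MRP10 (mS37; -0.30 ± 0.10, adjusted p = 0.0385) was the one member called, and it was lost without any 1 of the mock lysates or ethanol replicate 1. Without mock replicate 1, 9 fell at 5% and 10 at 10%. Without ethanol replicate 1 the counts were 12 falls and 2 rises at 5% and 8 falls at 10%, and without ethanol replicate 2 there were 10 falls at 10%. Library totals gave 28 falls and 2 rises at 5% and 33 falls at 10%.

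Occupancy in 7.5% ethanol rose in 14 members and fell in 13, where 26.4% of all transcripts rose and 22.3% fell, and the members' median Occ of 0.928 in both mock lysates became 0.878 and 0.909. MRPL10 had the largest fall, from 0.925 and 0.931 to 0.630 and 0.739 (-1.32 ± 0.13, adjusted p = 0.000184), followed by MRPL8, from 0.918 and 0.912 to 0.698 and 0.738 (-0.99 ± 0.10, adjusted p = 0.000152), and MRP7 (-0.82 ± 0.11, adjusted p = 0.000558). Relative to other mRNAs, MRPL32 (bL32m; 0.69 ± 0.13, adjusted p = 0.00273), MRPL4 (0.61 ± 0.10, adjusted p = 0.00193) and MRPL44 (0.59 ± 0.12, adjusted p = 0.00434) rose most. Without centring none rose and 26 fell. The ribosome-bound library against Total in edgeR called 1 fall. Leaving out mock replicate 1 gave 6 rises and 8 falls, and leaving out mock replicate 2 gave 8 of each.

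After heat shock for 10 min, few members were called in abundance in Sed-seq. With 2 lysates per group, a missing call does not show that a level stayed the same. At 42°C in the heat experiment MRP8 rose, from 95.5 and 110.5 to 132.5 and 129.1 TPM (0.43 ± 0.08, adjusted p = 0.00839), and MRPL32 fell, from 32.1 and 31.1 to 22.5 and 22.9 TPM (-0.39 ± 0.09, adjusted p = 0.042), where 7.23% of all transcripts were called. With the pairing of lysates by replicate number as a block MRPS18 also fell (-0.35, adjusted p = 0.0196), and library totals gave 1 rise and 5 falls. MRP8 was called without 30°C replicate 2, and neither gene was called without any 1 of the other lysates. No member was called by edgeR at 46°C there, with 1 at an unadjusted p under 0.05 and none by DESeq2, where 0.44% of all transcripts were called. In the spike-in experiment at 46°C, 5 members fell, where 28% of all transcripts were called: MRPL32 (-0.59 ± 0.10, adjusted p = 1.83e-05), MRPL44 (-0.27 ± 0.07, adjusted p = 0.00376), MRP1 (-0.19 ± 0.06, adjusted p = 0.0214), MRPS9 (-0.18) and MRP20 (-0.16). There were 3 falls without 30°C replicate 2 and 3 without 46°C replicate 2. No member was called in the mock lysates of the CHX experiment at 46°C, with 1 at an unadjusted p under 0.05 and none by DESeq2, where 1.02% of all transcripts were called.

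The mock lysates of the degron strains gave the same gene. MRPL32 was the one member that fell in the eIF3b strain at 42°C (-0.81 ± 0.17, adjusted p = 0.0435), and in the eIF4E strain at 42°C (-0.64 ± 0.15, adjusted p = 0.047) and 46°C (-0.66 ± 0.15, adjusted p = 0.0276), where 0.976%, 2.05% and 3.3% of all transcripts were called. In the eIF3b strain at 46°C no member was called by edgeR, with 4 at an unadjusted p under 0.05 and none by DESeq2, where 1.38% of all transcripts were called. There the replicate numbers paired the lysates, and with the pairing as a block MRPL32 (-0.60) and MRP8 (-0.34) fell. Each single call in the degron mocks at 42°C was lost when any 1 of its 4 lysates was left out, and that at 46°C was lost without either 30°C lysate or without 46°C replicate 2. Over the 8 Sed-seq heat comparisons the estimate for MRPL32, which encodes bL32m of the large subunit, lay between -0.81 and -0.39. In heat Polysome-seq its estimate was 0.29 at 42°C and -0.37 at 46°C by TMM, and -0.23 and -0.54 under library totals.

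Polysome-seq gave more calls in heat than Sed-seq. At 42°C 14 members rose and 5 fell, where 38.5% of all transcripts rose and 34.4% fell, and at 46°C 5 rose and 11 fell, where 19.8% rose and 18% fell. Library totals turned the first to 4 rises and 34 falls and gave 4 rises and 25 falls at 46°C, having moved the median of all transcripts to -0.46 and -0.19. At 42°C MRP8 went from 94.8 and 91.2 to 191.8 and 199.7 TPM (1.78 ± 0.14, adjusted p = 4.44e-06), which was also a rise under library totals, at 1.26. MRP49 rose from 40.3 and 46.4 to 70.5 and 64.7 TPM (1.36 ± 0.14, adjusted p = 2.18e-05), and MRPL23 (uL13m) from 49.5 and 52.5 to 59.3 and 59.4 (0.93 ± 0.11, adjusted p = 4.03e-05). MRPL11 (uL10m), at 35.8 and 35.5 against 17.2 and 16.3 TPM, fell (-0.39 ± 0.12, adjusted p = 0.0177), as did MRPL37 (-1.07), MRPL15 (-0.96), MRP2 (-0.65) and MRPL20 (-0.56). At 46°C the rises were MRP13 (mS44; 0.75 ± 0.10, adjusted p = 0.0007), MRPL39 (0.67), MRP8 (0.64 ± 0.14, adjusted p = 0.00895), MRPL25 (0.57 ± 0.13, adjusted p = 0.00878) and MRPL24 (0.53). MRPL31 (mL60) was among the falls, from 69.02 and 66.1 to 40.1 and 36.3 TPM (-0.60 ± 0.11, adjusted p = 0.00332). Cells were heated as a centrifuged pellet for Sed-seq and on a filter in pre-warmed medium for Polysome-seq, and whether this bears on the difference was not tested. Without 30°C replicate 1 the counts were 7 rises and 4 falls at 42°C and 1 rise and 3 falls at 46°C, and without 30°C replicate 2 they were 8 and 4, and 3 and 4. Without heated replicate 2 they were 7 and 5 at 42°C, and 2 and 7 at 46°C.

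In heat the members' median eSed lay near 0. In the heat experiment their median pSup was 0.923 in both 30°C lysates, 0.643 and 0.637 after 42°C, and 0.249 and 0.274 after 46°C. The median eSed was -0.18 and 0.02. MRP8 was the one member called at 42°C, where 2.12% of all transcripts were called, and at 46°C 6 members rose and none fell, where 12.5% were called. Its pSup was 0.954 and 0.949 at 30°C, 0.856 in both 42°C lysates (eSed 1.39 ± 0.18, adjusted p = 0.0287) and 0.465 and 0.511 at 46°C (1.12 ± 0.18, adjusted p = 0.0205). The others that rose at 46°C were MRPL28, at 0.933 and 0.926 against 0.407 and 0.438 (1.74 ± 0.28, adjusted p = 0.0217), MRPL32 (1.35 ± 0.24, adjusted p = 0.0254), MRPL27 (mL41; 1.21 ± 0.27, adjusted p = 0.0392), MRPS5 (0.96 ± 0.24, adjusted p = 0.0476) and MRP21 (bS21m, 0.89). Without either 42°C lysate none was called at 42°C, and without either 46°C lysate none was called at 46°C, while without 30°C replicate 2 the counts were 4 rises and 3 falls at 42°C and 11 rises and 5 falls at 46°C.

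MRP8 rose in eSed in all 8 heat comparisons of Sed-seq, which come from 5 experiments, with estimates between 0.87 and 1.39. Without a trend in limma it was not called at 42°C in the heat experiment or at 46°C in the CHX mock. In the spike-in experiment 7 members rose and 6 fell at 46°C, where 35.7% of all transcripts were called, led by MRPS5 (1.52 ± 0.29, adjusted p = 0.00294), MRPL28 (1.38 ± 0.33, adjusted p = 0.0099) and MRP8 (1.36 ± 0.24, adjusted p = 0.00209) among the rises and by MRPL44 (-1.93 ± 0.36, adjusted p = 0.00264) and MRP35 (bL35m; -1.87 ± 0.39, adjusted p = 0.00474) among the falls. Leaving out 46°C replicate 1 gave 4 rises and 4 falls there, and leaving out 46°C replicate 2 gave 4 and 3. MRP8 was the one member called in the CHX mock (1.31 ± 0.28, adjusted p = 0.0326), where 7.34% of all transcripts were called, and was lost without mock replicate 1 at 30°C or either 46°C lysate. In the eIF3b mock 3 members rose at 42°C (MRP8, MRPL4 and MRPS5) and 4 rose (MRP8, MRPL28, MRPS12 and MRPS5) and 2 fell (MRPL22 and MRPL44) at 46°C, where 15.1% and 24.6% of all transcripts were called. Without 30°C replicate 1 none was left at 42°C and 1 rise at 46°C, without 42°C replicate 1 there was 1 fall and without 30°C replicate 2 there was 1 rise at 42°C, and 2 rises and 1 fall were left at 46°C without 46°C replicate 2. In the eIF4E mock MRP8 rose and MRP7 fell at 42°C, and at 46°C 4 rose (MRP8, MRPL28, MRPL32 and MRPS12) and MRPL44 fell, where 18.3% and 27.5% were called. None was left at 42°C without 42°C replicate 1 or 30°C replicate 2, none at 46°C without 46°C replicate 1, and 1 of each at 46°C without 30°C replicate 1 or 46°C replicate 2.

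Occupancy at 42°C rose in 13 of 51 members tested and fell in 2, where 25.8% of all transcripts rose and 19.9% fell, and at 46°C rose in 20 and fell in 11, where 33.5% rose and 27.8% fell. The members' median Occ was 0.856 and 0.878 at 30°C, 0.819 and 0.840 at 42°C and 0.876 and 0.893 at 46°C. Without centring on the median mRNA none rose and 19 fell at 42°C, and 18 rose and 9 fell at 46°C. With polysomes against Total in edgeR, leaving out mono- and disomes, 35 rose and 4 fell at 46°C. MRP10 (0.79 ± 0.14, adjusted p = 0.000345), MRPL28 (0.66 ± 0.12, adjusted p = 0.000512) and MRPL13 (0.50 ± 0.19, adjusted p = 0.0466) were among the rises at 42°C, and those that fell were MRP4 (-0.53 ± 0.12, adjusted p = 0.00201) and MRP7 (-0.45 ± 0.11, adjusted p = 0.0037). At 46°C MRPS5 went from an Occ of 0.816 and 0.827 to 0.922 and 0.959 (1.24 ± 0.16, adjusted p = 1.99e-05) and MRPL16 (uL16m) from 0.826 and 0.834 to 0.941 and 0.939 (1.12 ± 0.12, adjusted p = 2.93e-06). MRPL25 rose as well (0.97 ± 0.18, adjusted p = 0.000351). MRPL10 went down from 0.881 and 0.898 to 0.619 and 0.579 (-1.73 ± 0.20, adjusted p = 4.7e-06), MRP4 from 0.790 and 0.813 to 0.585 and 0.517 (-1.23 ± 0.12, adjusted p = 8.17e-07) and MRP1 by 0.94 in log-odds (adjusted p = 1.52e-05). MRP4 was the one member whose Occ fell in all 4 Occ comparisons, the 2 of heat sharing their 30°C lysates. Large subunit genes rose in 15 of 34 cases and fell in 4 at 46°C, and small subunit genes rose in 5 of 16 and fell in 6. The count at 42°C was 5 rises and 1 fall without 30°C replicate 1, 4 and 2 without 30°C replicate 2, and 6 and 3 without 42°C replicate 1.

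With initiation factors depleted, most members fell relative to the bulk of transcripts. Their own median TPM lay within or below the range of the mock lysates at 30°C, and with eIF4E depleted also at 46°C. In the eIF3b strain at 46°C it was 37.36 and 34.67 in depleted cells, against 33.67 and 36.99 in mock. With eIF3b, a subunit of the initiation factor eIF3, depleted, the members' median TPM was 37.2 and 34.04 at 30°C against 34.7 and 37.4 in mock, while the median of all transcripts tested went from 23.3 and 24.1 to 43.8 and 41.8. Scaled to the bulk of transcripts by TMM, 40 members fell and 5 rose at 30°C, where 38.7% of all fell and 41.8% rose, with a median of -0.91, but scaled to library totals 13 fell and 21 rose, with a median of -0.06. At 46°C 42 fell and 5 rose, where 40.3% of all fell and 42.9% rose, with a median of -0.81 by TMM, and 14 fell and 22 rose with a median of 0.09 by library totals. Library totals moved the median of all transcripts to 0.92 and 0.96. The members lay below that median under both scalings, which had to be so, since scaling shifts all transcripts nearly alike. With eIF4E, the cap-binding protein, depleted, 36 members fell and 1 rose at 30°C, where 29.2% of all fell and 30.7% rose, with a median of -0.35 by TMM and -0.05 by library totals. At 46°C 39 fell and none rose, where 30.6% of all fell and 29.5% rose, with medians of -0.44 and -0.09. Under library totals the eIF4E counts were 15 falls and 5 rises at 30°C and 12 and 5 at 46°C. Without mock replicate 1, 24 fell at 30°C.

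MRP8 had the largest rise with eIF3b depleted, from 63.3 and 84.4 to 398.9 and 390.9 TPM at 30°C (log2 change 1.71 ± 0.13, adjusted p = 1.19e-07) and from 47.4 and 66.8 to 380.4 and 414.2 at 46°C (2.05 ± 0.13, adjusted p = 2.01e-08), and it was higher by 2.56 and 2.95 under library totals. With eIF4E depleted it was at 107.9 and 99.5 TPM against 95.4 and 81.1 at 30°C (0.07 ± 0.10, adjusted p = 0.541). The others that rose with eIF3b depleted were MRPL28 (0.79), MRP49 (0.61), MRPL24 (0.49) and MRPS5 (0.35 ± 0.14, adjusted p = 0.0369) at 30°C, and MRPL28 (0.97), MRP35 (0.46), MRP49 (0.35) and MRPL24 (0.35) at 46°C. Among the falls, MRP1 went from 46.5 and 49.9 to 30.8 and 31.5 TPM (-1.34 ± 0.09, adjusted p = 4.37e-08 by TMM and -0.49 under library totals) and MRPL7 from 33.04 and 35.4 to 23.9 and 21 (-1.31 ± 0.09, adjusted p = 7.21e-08, and -0.46). MRPL31 fell by 1.25 by TMM and was at -0.39 under library totals. At 46°C the largest falls among genes with at least 100 counts were MRPL7 (-1.45), MRP1 (-1.30) and MRPL13 (-1.20), at -0.55, -0.40 and -0.30 under library totals. With eIF4E depleted at 30°C, MRPL50 went from 101.3 and 100.1 to 49.4 and 57.5 TPM (-1.04 ± 0.13, adjusted p = 1.44e-05, and -0.74 under library totals), MRPS8 (uS8m) changed by -0.77 and MRP17 by -0.73, while MRPL10 rose from 19.2 and 20.2 to 31.4 and 30.2 TPM (0.48 ± 0.13, adjusted p = 0.00636, and 0.78). At 46°C MRPS8 (-0.93), MRPS18 (-0.91) and MRPL20 (-0.89) had the largest falls among genes with at least 100 counts, at -0.58, -0.56 and -0.54 under library totals.

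The cytosolic ribosomal protein genes fell in 133 of 137 cases by TMM with eIF3b depleted at 30°C and also in most cases with eIF4E depleted, with medians of -1.34 and -0.44, further down than the members. Protein import genes had medians of -1.19 and -0.52, and mitochondrial translation factors and synthetases -0.07 and -0.17. Over 56 members the changes at 30°C in the 2 depletions, which come from separate strains and experiments, had a Pearson r of 0.61 and a Spearman rho of 0.68. Over all transcripts these were 0.66 and 0.70, so the likeness was not particular to the members.

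Depletion of eIF3b at 46°C lowered pSup of the members from a median of 0.384 and 0.312 in mock to 0.0906 and 0.0902, and that of all transcripts tested from 0.296 and 0.236 to 0.0686 and 0.0744. Relative to length-matched transcripts, 19 of 55 members fell in eSed and 6 rose, where 31.4% of all fell and 27% rose, with a median of -0.49. MRPL27 went from 0.463 and 0.379 to 0.0561 and 0.0867 (-2.06 ± 0.38, adjusted p = 0.000418), MRPL22 (uL22m) from 0.371 and 0.222 to 0.0375 and 0.0423 (-1.89 ± 0.33, adjusted p = 0.000274), and MRPS5 from 0.425 and 0.404 to 0.0856 and 0.0672 (-1.67 ± 0.34, adjusted p = 0.000947). MRP8 kept 0.430 and 0.413 in the supernatant against 0.630 and 0.510 in mock (1.81 ± 0.21, adjusted p = 9.45e-06), the largest rise, and MRPL10 rose by 0.98 ± 0.31 (adjusted p = 0.0145). At 30°C 4 members rose (MRP49, MRP8, MRPL23 and MRPS35) and 6 fell, where 40.6% of all transcripts were called. The difference between the effects at 46°C and 30°C was called for 8 members, where 34.1% of all transcripts were called. Leaving out any 1 of the 4 lysates at 30°C left between 3 and 6 calls. At 42°C, which was not tested, the members' median pSup was 0.260 and 0.290 with eIF3b depleted and 0.609 and 0.577 in mock.

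Depletion of eIF4E moved fewer members. MRPL24 was the one member called in eSed at 30°C (1.55), where 12.4% of all transcripts were called, and was lost without mock replicate 2 or depleted replicate 2. At 46°C 4 rose (MRPL40, MRP20, MRPL35 and MRP4) and 6 fell, led by MRP7 (-1.38) and MRPS28 (uS15m, -1.27), where 32.5% were called. Without mock replicate 1, mock replicate 2 or depleted replicate 2 the counts at 46°C were 1 and 4, 3 and 2, and 1 and 4. At 42°C the median pSup was 0.468 and 0.393 with eIF4E depleted and 0.561 and 0.671 in mock.

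No member was called in eSed by limma, with or without a trend, with CHX at 30°C or 46°C or with DTT, with 6, 10 and 3 at an unadjusted p under 0.05, where 0%, 1.68% and 1.28% of all transcripts were called. At 42°C, with 1 lysate each, the members' median pSup was 0.608 with CHX and 0.4795 without. Abundance with CHX rose in 13 members and fell in 9 at 30°C, and rose in 10 and fell in 11 at 46°C, where 60% and 56.4% of all transcripts were called. Under library totals 36 and 39 rose and none fell, the median of all transcripts having moved to 0.59 and 0.62. MRPL24 rose at both temperatures, from 18.5 and 12.9 to 48.8 and 52.98 TPM at 30°C (1.01 ± 0.16, adjusted p = 0.0011) and by 1.14 at 46°C, and MRPL28 rose at 30°C (0.66 ± 0.11, adjusted p = 0.00144). MRP8 fell at both (-0.45 ± 0.09, adjusted p = 0.00413, and -0.38 ± 0.09, adjusted p = 0.01), though its TPM was 136.5 and 140.6 in mock and 146.3 and 170.4 with CHX at 30°C, and its change under library totals was 0.09. MRP1 and MRPS18 fell at 30°C by 0.46 and 0.44, and were at 0.08 and 0.10 under library totals. Without the mock replicate 1 of each temperature the counts were 13 rises and 1 fall at 30°C and 10 and 1 at 46°C, and without CHX replicate 2 they were 8 and 5, and 9 and 4.

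With DTT 3 members rose and 4 fell, where 51.6% of all transcripts were called. MRPL50 (0.44 ± 0.09, adjusted p = 0.00154), MRP49 (0.33) and MRP21 (0.29) rose, and MRPL38 (-0.74), MRPL6 (uL6m, -0.66), MRPL8 (-0.26) and MRPS12 (-0.18) fell. MRPL50 was at 63.9 and 65.2 TPM in mock and at 100.2 and 109.9 with DTT. Library totals gave 18 rises and 2 falls. Without mock replicate 1 there were 1 rise and 2 falls, and without DTT replicate 2 there was 1 of each.

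**Figure D5:**
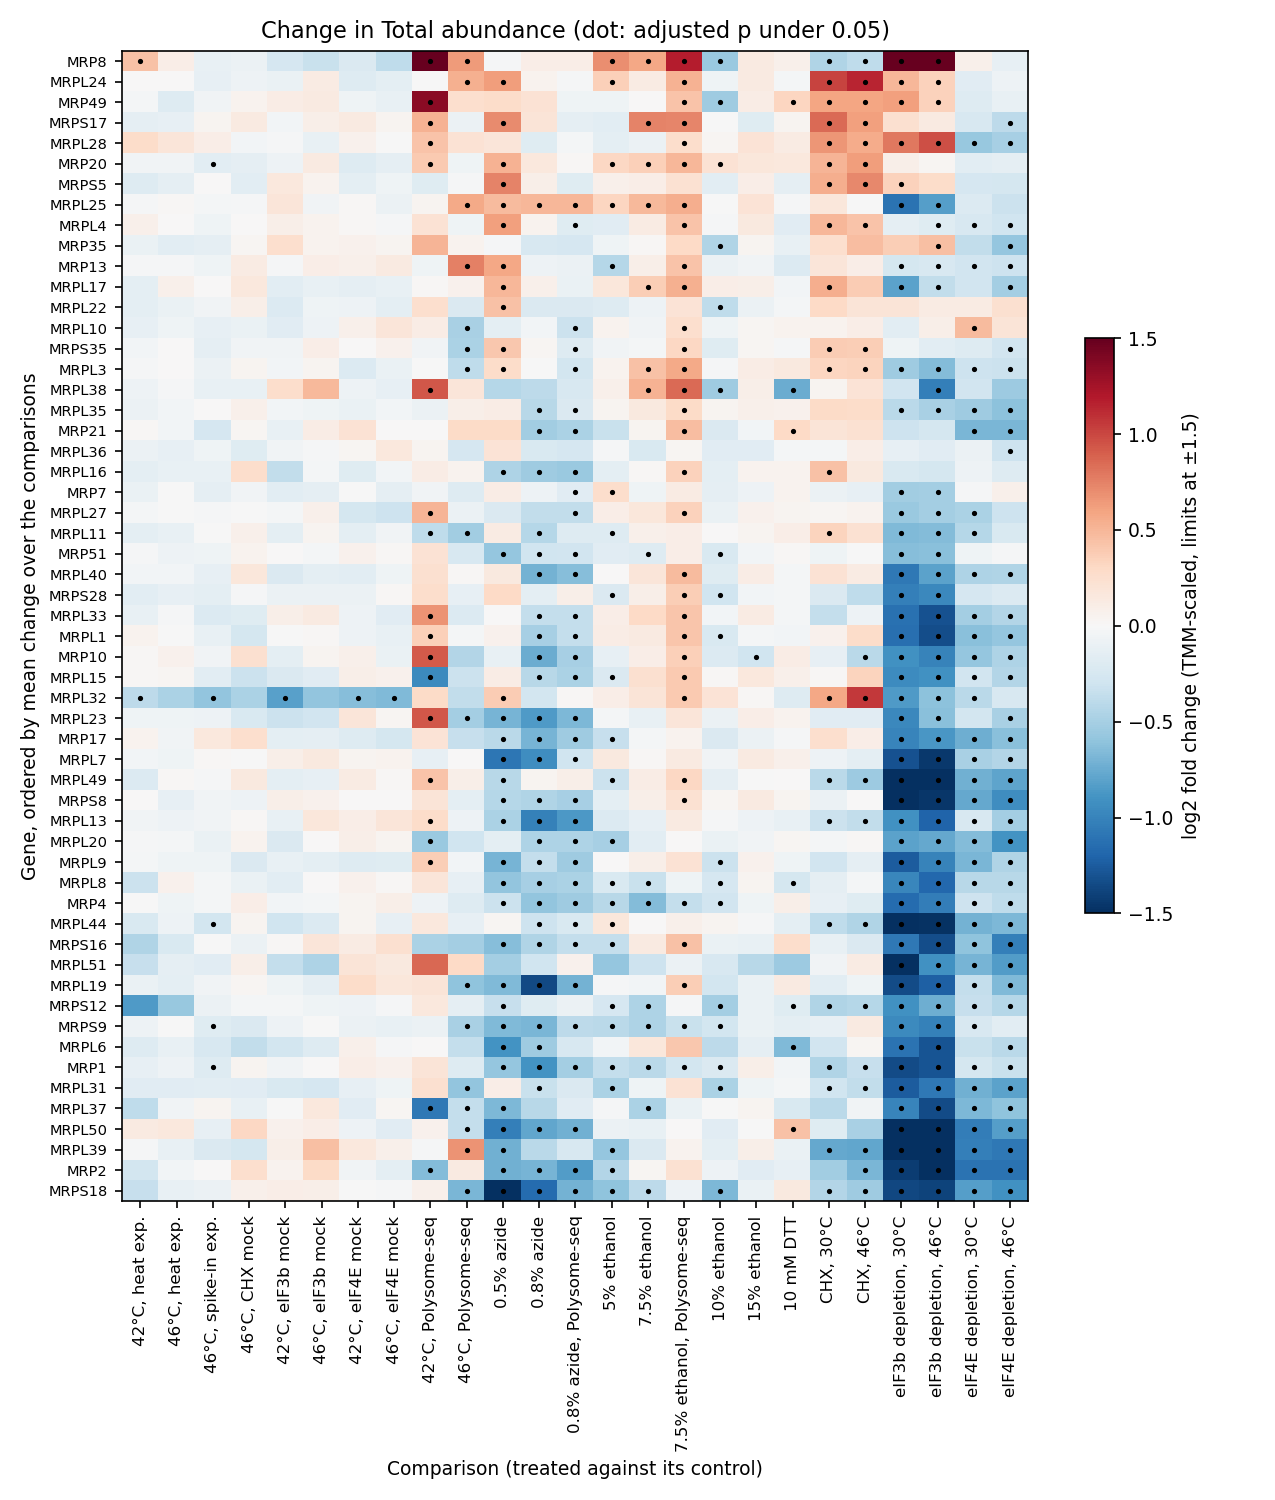
TMM-scaled log2 fold change in Total abundance of each of the 56 genes (rows, ordered by their mean change) in each of the 25 comparisons (columns), with a dot where the adjusted p is under 0.05. MRP8 at the top rose in 8 comparisons and fell in 3, and MRPS18 at the bottom fell in 13 and rose in none. Columns of CHX, DTT, 0.5% azide, 7.5% ethanol in Sed-seq, 42°C in Polysome-seq and the depletions have another balance of rises and falls under library totals.

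Among the members, some genes were called more often than others. Such tallies were not made over all transcripts, whose called share differed widely between comparisons. In abundance it was, for example, 0.44% at 46°C in the heat experiment and 60% with CHX at 30°C. In eSed it was 0% with CHX at 30°C and 40.6% with eIF3b depleted at 30°C. Whether a member was called more often than other transcripts was not tested. Over the 25 abundance comparisons, several of which share lysates, MRP1 fell in 14 and rose in none, MRPS18 fell in 13 and MRPS9 in 12, while MRPL24 rose in 8 and fell in none. MRPL36 (bL31m) was called once, a fall. In eSed, MRP8 rose in 11 of 21 comparisons and fell in none, MRPL28 rose in 5 and fell in none, and MRPL44 fell in 6 and rose in none. MRP2, MRPL1, MRPL33, MRPL36 and MRPL6 were called in no eSed comparison. In the 7 Clover reporter strains at 30°C, with 1 lysate each, the members' median TPM lay between 25.3 and 28.8 and their median pSup between 0.903 and 0.924.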

How the data were processed

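Sed-seq and Polysome-seq libraries were made and sequenced by the authors, whose processing notes name Trim Galore 0.6.10, UMI-tools 1.1.4, STAR 2.7.10b, SAMtools 1.16.1 and kallisto 0.48.0 with the yeast build R64. The authors deposited kallisto estimated counts and TPM per transcript. The deposited pSup is a fraction that the authors computed from counts and mixing ratios fitted to Total, supernatant and pellet libraries. For Polysome-seq the authors deposited counts scaled to the spike-in as a signal, from which Occ was recomputed as the bound fractions over bound plus free (in heat the bound are mono- and disomes plus polysomes, in azide and ethanol 1 pooled library). Members, lists and tests were chosen with earlier results of these data known.

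Estimated counts of Total libraries were rounded and tested with edgeR 4.0.16 (TMM, filterByExpr, quasi-likelihood). eSed and Occ were tested with limma 3.58.1 with a trend on mean log2 counts, in R 4.3.3, with all groups of an experiment in 1 fit. eSed was tested where supernatant and pellet together gave 20 or more estimated counts for each lysate, and the length-matched mean ran over 0.02 of the log length range. P-values are 2-sided, and errors are standard errors. Genes were named by rule: per comparison and measure the 3 largest called rises and falls with groups that do not overlap and at least 100 estimated counts in every Total library, the extremes at 30°C, MRP8, and every member of a count of 5 or fewer. MRP8 and a few members beside these were given for comparison after their values were seen. By abundance, same-numbered lysates deviated together in the heat, CHX and eIF3b experiments (correlation above 0.1 for each pair of groups), so numbers were taken to pair them there. The rule asked for at least 3 pairs of groups, so an experiment with a single pair could not meet it, whatever its correlation. Alternatives were DESeq2 1.42.0, its size factors, no count filter, at least 100 counts, bins of 100 transcripts, open reading frame length, limma without a trend, no centring of Occ, polysome (heat) or pooled bound library against Total, a replicate block and each lysate left out. Library totals in place of TMM were added after seeing the data. The scripts were tested on simulated data. Sequences are not analysed here. Python 3.11.15 and matplotlib 3.10.9 were used for tables and figures.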

Additional observations from a re-analysis of the deposited data

Results flagged for a closer look

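Effects that differed between experiments or temperatures by a test of the difference itself were found for 14 gene and comparison pairs. The fall of MRPL7 in abundance in 0.8% azide was larger in Sed-seq than in Polysome-seq, by -0.62 on the log2 scale (adjusted p = 0.0236). It was the 1 member called of 56, where 4.47% of all transcripts were called. In 7.5% ethanol the changes of MRPS12, MRP8 and MRP4 were lower in Sed-seq than in Polysome-seq by -0.43, -0.60 and -0.28 (adjusted p = 0.00949, 0.0254 and 0.0494). These were 3 of 56 members, where 18.4% of all transcripts were called.

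Depletion of eIF3b changed eSed at 46°C otherwise than at 30°C for 8 members, where 34.1% of all transcripts were called. MRPL23 and MRP49, which rose at 30°C, were lower by -2.22 and -2.00 at 46°C (adjusted p = 0.00248 and 0.00284), as were MRPL25 by -2.20 (adjusted p = 0.0397) and MRPS9 by -1.39 (adjusted p = 0.0327). MRPL10, MRP21 and MRP4, which fell at 30°C, were higher by 1.81, 1.34 and 1.29 (adjusted p = 0.00648, 0.0406 and 0.0117), and MRP8 was higher by 1.23 (adjusted p = 0.0063). With eIF4E depleted the difference in eSed was 1.04 for MRP4 and -1.25 for MRP7 (adjusted p = 0.0304 and 0.0433), where 6.46% of all transcripts were called. These adjusted p-values are from edgeR for abundance and limma for eSed, over all transcripts tested.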

How the results depend on the processing

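Of 396 recomputed medians, 322 moved by less than the spread between lysates (1 SD). Library totals moved the median abundance change to -0.15 (42°C, heat), 0.49 and 0.62 (CHX at 30°C and 46°C), 0.31 (0.5% azide), -0.21, -0.25, -0.30 and -0.03 (5%, 7.5%, 10% and 15% ethanol), 0.13 (DTT), -0.06 and 0.09 (eIF3b at 30°C and 46°C), -0.05 and -0.09 (eIF4E), -0.05 (42°C, eIF4E mock), -0.35 and -0.30 (Polysome-seq at 42°C and 46°C) and 0.11 (Polysome-seq, 7.5% ethanol). The library labelled polysome against Total, which leaves out mono- and disomes in heat only, moved median Occ to 0.28, 0.71, -0.18 and -0.02 (42°C, 46°C, azide, ethanol), and no centring to -0.33, -1.25 and -0.39 (42°C, azide, ethanol). Median eSed moved to -0.08 (0.5% azide) and -0.37 (eIF3b at 46°C) with at least 100 counts, and to -0.40 (0.8% azide) in bins.

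Leaving out each lysate in turn gave median abundance changes between -0.13 and 0.12 (CHX mock 46°C and CHX at 30°C), -0.02 and 0.17 (CHX at 46°C), -0.21 and -0.03 (0.5% azide), -0.41 and -0.32 (0.8% azide), -0.20 and -0.08, 0.02 and 0.09, -0.01 and 0.04 (10%, 7.5%, 15% ethanol), -0.97 and -0.80, -0.84 and -0.74 (eIF3b at 30°C, 46°C), -0.40 and -0.37, -0.43 and -0.39 (eIF4E), 0.05 and 0.20 (Polysome-seq, 42°C), -0.34 and -0.22 (azide) and 0.21 and 0.32 (ethanol). Median eSed lay between -0.16 and -0.06, -0.08 and 0.09 (heat, 42°C, 46°C), -0.11 and -0.03 (spike-in), -0.12 and 0.10 (CHX mock), -0.38 and -0.09 (CHX at 46°C), -0.12 and 0.17 (0.5% azide), -0.48 and -0.32 (0.8% azide), -1.27 and -1.02 (10% ethanol), -0.18 and -0.04 (eIF3b at 30°C), 0.04 and 0.20 (46°C, eIF3b mock), -0.13 and 0.03 (eIF4E at 46°C), -0.23 and -0.11, -0.16 and 0.03 (42°C and 46°C, eIF4E mock). Median Occ lay between 0.11 and 0.22 (46°C), -0.62 and -0.51 (azide), -0.03 and 0.15 (ethanol).

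DESeq2 called 2 members rather than 5 (spike-in), 13 rather than 22 and 12 rather than 21 (CHX at 30°C, 46°C), 10 rather than 17 (10% ethanol), 2 rather than 7 (DTT), 12 rather than 19 (Polysome-seq, 42°C), 1 rather than 2 (42°C, heat) and 0 rather than 1 (15% ethanol, and the 3 single calls in degron mocks). Bins of 100 transcripts called 8 rather than 5 in eSed (0.8% azide), 5 rather than 3 (42°C, eIF3b mock) and 2 rather than 1 (eIF4E at 30°C), and at least 100 counts 5 rather than 3 and 4 rather than 2 (42°C, eIF3b and eIF4E mocks). limma without a trend called 4 rather than 2 (42°C, eIF4E mock) and 0 rather than 1 (42°C, heat, and 46°C, CHX mock). With the replicate block, where numbers pair the lysates, calls changed by over 1.5 times only at 46°C in the eIF3b mock (2 rather than 0). Elsewhere, and for eSed, numbers were not taken to pair the lysates. In the 0.8% azide Sed-seq experiment, same-numbered lysates correlated at 0.22 in eSed over its 1 pair of groups. There the block gave 20 rather than 5 calls in eSed (5 rises and 15 falls). It gave 3 rather than 0 (eSed, CHX at 46°C), 7 rather than 3 (eSed, 42°C, eIF3b mock), and 2 rather than 1 (abundance, 15% ethanol and 46°C, eIF4E mock). MRPL51, among the genes of low count, had as few as 8 Total counts in a mock lysate of the CHX experiment. It also shares 323 bases with a gene on the opposite strand. The causes of these shifts were not tested.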
